A study of Mus musculus with 8 samples.

Results

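The question addressed here is whether long-term haematopoietic stem cells (LT-HSC) respond differently to irradiation when CD169+ macrophages have been depleted. It was measured as an interaction, the irradiation difference in depleted mice minus the irradiation difference in wild-type (WT) mice, on the log2 scale. The contrast used all 8 of the 8 Affymetrix arrays and all 30294 probe sets with 1 gene symbol, of 40161 probe sets in all. A value above 0 means that the level after 2 Gy, relative to non-irradiated cells, was higher in the depleted mice than in WT mice. A value below 0 means the opposite.

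Non-irradiated and 2 Gy cells were compared in each of 2 genotypes, WT and CD169-DTR, giving 4 groups of 2 arrays. CD169-DTR mice (CD169DTR/+) carry 1 copy of the diphtheria toxin receptor driven by Siglec1, the gene of CD169, so the toxin kills every cell type that uses this gene. Every mouse, WT included, received diphtheria toxin, and 72 h later total body irradiation with 2 Gy or a sham treatment. LT-HSC were sorted from bone marrow at day 5 as Lin- cKit+ Sca+ Flk2- CD48- CD150+ cells. The submitters describe the 2 arrays of a group as coming from distinct experiments, while the labels do not give age, sex or the number of mice behind an array. P-values therefore measure the spread between these arrays only.

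CD169+ macrophages sit beside stem cells in the bone marrow and act on the stromal cells that make Cxcl12, the chemokine that holds stem cells in place through its receptor Cxcr4. Ionising radiation activates the transcription factor p53, which induces Cdkn1a (p21), an inhibitor of cyclin-dependent kinases that arrests the cell cycle. Irradiated marrow also loses progenitors and mature cells, and the stem cells that remain receive inflammatory and cytokine signals while blood formation recovers.

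The arrays had median values of 4.86 to 5.03 log2 over the tested probe sets, with upper quartiles of 7.83 to 7.97 and 25th percentiles of 3.88 to 4.06. Replicates of a group correlated with r of 0.9906 to 0.9943 across probe sets. On the first principal components the most distant arrays were WT 2 Gy replicate 1 and CD169-DTR 2 Gy replicate 2, called the far 2 Gy arrays below, and the value without both is given for interactions with an unadjusted p under 0.05 that it moves by over 1.5 times, and for list medians in the plot of lists. The stem cell markers Kit (14.25 to 14.93), Hlf (12.44 to 13.33), Slamf1, the gene of CD150 (10.66 to 12.38), and Mecom (7.85 to 8.62) were high on every array, and Procr lay at 6.27 to 7.03. Cd48, whose protein the gate excludes, nevertheless read 10.98 to 13.47. Flt3, the gene of Flk2, which the gate also excludes, read 5.85 to 8.22, with the highest value in CD169-DTR non-irradiated replicate 2. Of the macrophage markers, Siglec1 (3.86 to 4.12) was near the 25th percentile in all 8 arrays, Csf1r, Adgre1 and C1qa reached at most 4.84, and Cd68 read 7.57 to 8.67. Because these are bulk samples, fewer cells of a type and less RNA per cell cannot be told apart.

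Some of the probe sets with the smallest interaction p-values are annotated with microRNA genes. MicroRNAs are short RNAs that repress messenger RNAs through their seed, bases 2 to 8. The mature sequences of 3 of these genes are shown because a reader can tell from the seeds which of them could share targets. They are from RefSeq (GRCm38.p6), 5′ to 3′, with the seed in capitals.
miR-148a-3p: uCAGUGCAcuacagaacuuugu
miR-148a-5p: aAAGUUCUgagacacuccgacu
miR-186-5p: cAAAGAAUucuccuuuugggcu
miR-186-3p: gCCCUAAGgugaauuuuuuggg
miR-465c-5p: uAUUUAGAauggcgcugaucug

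Mir148a lies on the minus strand of chromosome 6, with the 3p product at chr6:51269829-51269850. Mir186 is on the plus strand of chromosome 3, with the 5p product at chr3:157544285-157544306. Mir465c-2 is on the minus strand of the X chromosome, with its 5p product at chrX:66832566-66832587. None of these 5 products share a seed with one another. The seed of miR-148a-3p is also that of miR-148b-3p and miR-152-3p, and the seeds of both miR-186 products occur once among the 1738 mature entries of the table. Mir465c-2 belongs to a family of near-identical copies, so its probe set may read several of them. Which form of the transcript, mature or precursor, these probe sets read was not tested.

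No gene passed the interaction test. Of the 30294 probe sets, 0 (0%) had a Benjamini-Hochberg adjusted p under 0.05 in limma, and the smallest adjusted p was 0.679. At an unadjusted p under 0.05 there were 726 probe sets with an interaction above 0 (2.4%) and 841 below 0 (2.78%). Each interaction can be computed in 16 ways by taking 1 array from each group. All 16 values were above 0 for 1918 probe sets (6.33%) and below 0 for 3196 (10.5%), and these percentages are the background for the counts that follow. The median interaction over 29915 genes was -0.05. With so few arrays, the 95% confidence intervals given below are wide, and an interaction that did not pass is not shown to be absent. Each interval is for a single probe set and is not adjusted for the 30294 tested. Genes chosen by a small p have intervals that leave out 0 because of that choice, which is not evidence of an interaction.

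Cxcr4, Mmp2 and Cdkn1a were the 3 probe sets (0.0099%) that passed the irradiation test in WT cells, and 0 (0%) passed in CD169-DTR cells. At an unadjusted p under 0.05 these tests gave 2365 and 2050 probe sets. In each of the 3 genes the irradiation difference was smaller in size in CD169-DTR cells. The interaction contains the same WT arrays on which the 3 genes passed, so its sign for them is not independent of that test. None of the 3 interactions passed, and passing in WT cells alone does not show that the genotypes differ.

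Cxcr4, the Cxcl12 receptor, read 14.16 and 14.10 in WT non-irradiated cells and 12.43 and 12.51 in WT 2 Gy cells. In CD169-DTR cells it read 14.17 and 14.00 without irradiation and 13.79 and 13.88 after 2 Gy. The WT 2 Gy arrays thus stood alone below all 6 others, with no overlap. Cxcr4 fell by 1.66 in WT cells (SE 0.119, limma adjusted p = 0.0397), against a difference of -0.25 in CD169-DTR cells (limma adjusted p = 0.789). The interaction was 1.41 (95% CI 1.01 to 1.81, limma adjusted p = 0.679). It stayed between 1.32 and 1.5 when any 1 array was left out, and was 1.32 without both far 2 Gy arrays. A gene whose 16 values share a sign, as here, cannot change sign when arrays are left out.

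Mmp2, the gelatinase that cleaves basement membrane collagen, read 6.12 and 5.89 in WT non-irradiated cells and 8.23 and 7.99 after 2 Gy. The CD169-DTR arrays read 6.80 and 6.73 without irradiation and 7.69 and 7.59 after 2 Gy. The 4 groups did not overlap, and both CD169-DTR groups lay between the WT groups. Mmp2 rose 4.30-fold in WT cells (limma adjusted p = 0.0397). The CD169-DTR difference was 1.83-fold (limma adjusted p = 0.466), and the interaction was -1.23 (95% CI -1.71 to -0.75, limma adjusted p = 0.753).

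Cdkn1a read 7.86 and 8.39 in WT non-irradiated cells, and 13.06 and 13.41 after 2 Gy. In CD169-DTR cells it read 9.79 and 9.34 without irradiation, and 13.24 and 13.23 after 2 Gy. After 2 Gy the genotypes therefore overlapped, and the interaction of -1.44 (95% CI -2.25 to -0.63, limma adjusted p = 0.839) came from the non-irradiated arrays. Cdkn1a rose 34.5-fold in WT cells (limma adjusted p = 0.0073). The difference in CD169-DTR cells was 12.7-fold (limma adjusted p = 0.0622).

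The p53 targets Phlda3, Ccng1 and Mdm2 had smaller interactions than Cdkn1a, and the difference from Cdkn1a was not tested. Phlda3, which holds back Akt signalling, read 7.37 and 7.24 in WT non-irradiated cells and 8.61 and 8.66 after 2 Gy, against 7.08 and 7.15, then 8.35 and 8.46, in CD169-DTR cells. Its irradiation differences of 1.33 and 1.29 were nearly equal, with an interaction of -0.04 (95% CI -0.43 to 0.35). Ccng1, cyclin G1, had an interaction of -0.07 (SE 0.189) and Mdm2, the ubiquitin ligase that restrains p53, one of -0.18 (SE 0.329). Mdm2 differed little after 2 Gy in either genotype, by 0.26 in WT and 0.08 in CD169-DTR cells. The signs of the interactions of Phlda3, Ccng1 and Mdm2 changed in some fits with 1 array left out. Over the 14 measured p53 arrest and feedback targets the median interaction was 0.02, with median irradiation differences of 0.55 in WT and 0.56 in CD169-DTR cells. Cdkn1a was the 1 member with an unadjusted p under 0.05. Among 8 death receptor and apoptosis targets the median was -0.01, and the lowest p belonged to Eda2r, a receptor of the TNF family (-1.12, SE 0.774, and 0.025 without both far 2 Gy arrays). Among 11 targets of repair and metabolism, Ephx1, a detoxifying epoxide hydrolase, had 1.29 and Xpc, a nucleotide excision repair factor, had -0.68. Xpc was -0.44 without CD169-DTR 2 Gy replicate 1 and -1.06 without both far 2 Gy arrays. Ephx1 read 8.80 and 8.0 in CD169-DTR non-irradiated cells and 9.45 to 9.94 in the other 6 arrays.

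**Figure D1:**
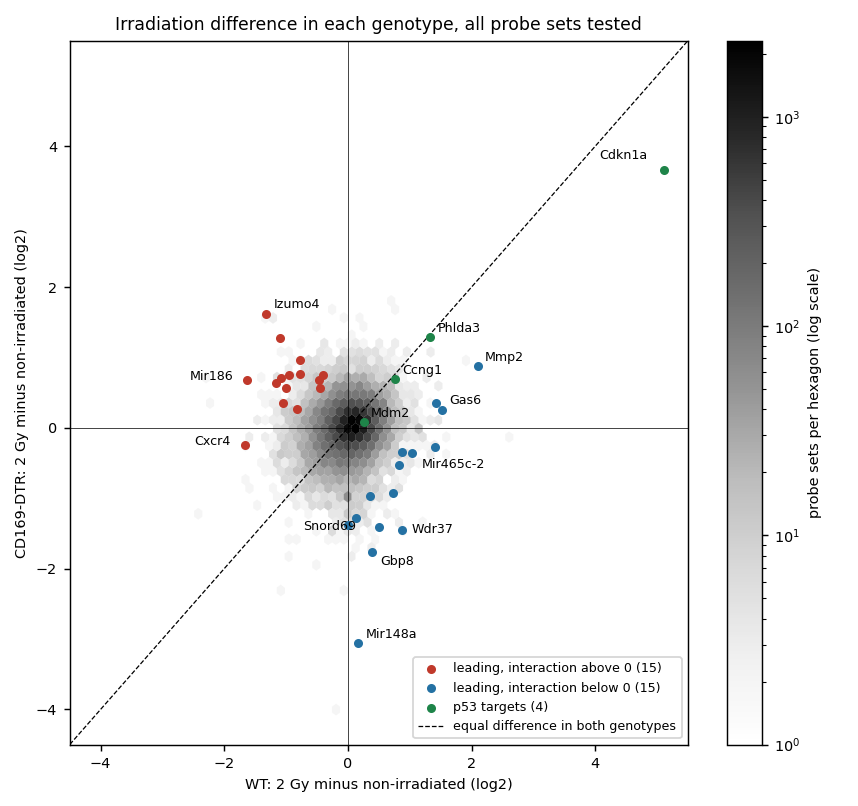
Each hexagon counts probe sets by their irradiation difference (2 Gy minus non-irradiated, log2) in WT cells on the x axis and in CD169-DTR cells on the y axis, with 5 probe sets beyond the axes. Points below the dashed line of equal differences have an interaction below 0. Cxcr4 lies above the line, and Mmp2 and Cdkn1a lie below it, while Phlda3 and Ccng1 lie on it.

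The 15 leading genes with an interaction above 0 were those with the smallest unadjusted p among genes with an interaction of at least 1 and all 16 values above 0. Their interactions ran from 1.01 to 2.94, and none passed (limma adjusted p 0.679 to 0.753). In 14 of the 15 the irradiation difference was below 0 in WT cells and above 0 in CD169-DTR cells, and Cxcr4 was the exception. The commonest pattern was a high level in WT non-irradiated and CD169-DTR 2 Gy cells with a low level in the other groups. Choosing genes on the interaction favours such opposite signs. They occurred in 86.2% of the 726 probe sets above 0 with an unadjusted p under 0.05.

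Izumo4, of the Izumo family known from sperm and egg fusion, read 8.44 and 8.87 in WT non-irradiated, 7.58 and 7.09 in WT 2 Gy, 7.53 and 7.43 in CD169-DTR non-irradiated and 8.80 and 9.4 in CD169-DTR 2 Gy cells. The 4 higher arrays were those of WT non-irradiated and CD169-DTR 2 Gy cells, and they did not overlap with the 4 lower ones. Its interaction of 2.94 (95% CI 2.04 to 3.84) was the largest of the 15. Ube2s, the enzyme that extends ubiquitin chains for the anaphase-promoting complex, read 12.71 and 12.36, then 11.28 and 11.47 in WT cells. In CD169-DTR cells it read 11.62 and 11.51, then 12.02 and 12.39. The arrays split as in Izumo4, with an interaction of 1.8 for Ube2s (95% CI 1.18 to 2.42).

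Wdr6, a partner of a tRNA methyltransferase, read 10.06 and 9.91 in WT non-irradiated cells and 8.94 in both WT 2 Gy arrays. It read 8.95 and 9.14 in CD169-DTR non-irradiated cells and 9.48 and 9.32 in CD169-DTR 2 Gy cells. The WT non-irradiated arrays were the highest, and the interaction was 1.40 (95% CI 0.96 to 1.84). The retinal reductase gene Dhrs3 had 1.56 (SE 0.209), and Ergic1, of the compartment between endoplasmic reticulum and Golgi, had 1.8 (SE 0.258). Serp1, a membrane protein of endoplasmic reticulum stress, had 1.75 (SE 0.292).

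The remaining genes of this group serve several compartments. Mrps34, of the small mitochondrial ribosomal subunit, had 1.01, and Dnlz, a partner of the mitochondrial Hsp70, had 1.71. Tbcc, a tubulin folding cofactor, had 1.14, Hs2st1, a heparan sulfate sulfotransferase, had 1.16, and Eipr1, of endosomal recycling, had 1.55. Eri3, of an exoribonuclease family, had 1.09. The histone H2A gene H2ac24 had 2.38, but histone genes have near-identical copies, so its value may hold signal from others. Mir186, whose 2 products are shown above, read 5.90 and 5.71, then 4.44 and 3.91 in WT cells, and 4.62 and 4.96, then 5.68 and 5.25 in CD169-DTR cells. Its WT 2 Gy arrays were the lowest, near the 25th percentile of the arrays, and its interaction was 2.31 (SE 0.339).

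The 15 leading genes with an interaction below 0 ran from -3.23 to -1.07, with limma adjusted p of 0.679 to 0.839. Before predicted genes were left out, 365 probe sets below 0 met the criteria, 160 of them small nuclear RNA and 104 protein-coding. Of the 272 above 0, 4 were small nuclear RNA and 211 protein-coding. The 30294 probe sets tested held 927 small nuclear RNA and 19238 protein-coding ones. For the 265 small nuclear RNA probe sets with a mean level above 7, 1 array weighed heavily. Their median level relative to the mean over arrays was -1.08 in CD169-DTR 2 Gy replicate 2 and -0.165 in replicate 1. Their median interaction was -1.03, and -0.56 without replicate 2. In 11 of the 15 leading genes below 0 the irradiation difference was above 0 in WT and below 0 in CD169-DTR cells. Opposite signs occurred in 83.9% of the 841 probe sets below 0 with an unadjusted p under 0.05.

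Mir148a had the smallest p of all genes in the interaction (limma adjusted p = 0.679). Its probe set read 6.40 and 5.72 in CD169-DTR non-irradiated cells. The other 6 arrays read 2.82 to 3.19, all below the 25th percentile of their array, so the level there may be background. Only the CD169-DTR non-irradiated arrays stood above that range, and the interaction of -3.23 (95% CI -4.02 to -2.44) rests on them. Mir465c-2 read 5.19 and 5.29, then 6.27 and 6.30 in WT cells, and 5.88 and 5.72, then 5.34 and 5.54 in CD169-DTR cells. Its interaction was -1.41 (95% CI -1.84 to -0.97), with the WT 2 Gy arrays the highest.

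Gas6, the ligand of the receptors Tyro3, Axl and Mertk, read 5.32 and 5.23 in WT non-irradiated cells and 6.61 and 7.00 in WT 2 Gy cells. It read 5.57 and 5.65, then 5.72 and 6.01, in CD169-DTR cells. The WT 2 Gy arrays stood above all others, and the interaction was -1.27 (95% CI -1.86 to -0.69). Tspan2, a tetraspanin, was also highest in WT 2 Gy cells, with 6.98 and 6.49 in WT 2 Gy cells and 5.25 to 6.02 in the others, and an interaction of -1.68 (SE 0.328).

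Cd86, the costimulatory ligand of CD28, read 7.62 and 7.19, then 8.33 and 7.93 in WT cells. In CD169-DTR cells it read 8.29 and 8.30, then 7.45 and 7.30. Its direction thus turned between the genotypes, with an interaction of -1.65 (95% CI -2.31 to -0.98). Gbp8, an interferon-induced guanylate-binding protein, had -2.15 (SE 0.495), but its CD169-DTR 2 Gy arrays, 6.68 and 5.64, differed widely. Without both far 2 Gy arrays it was -1.56.

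Of the other leading genes below 0, Dclre1a, a nuclease of interstrand crosslink repair, had -1.23, and Trdmt1, a tRNA cytosine methyltransferase, had -1.35. Hspb8, a small heat shock protein, had -1.41, Brox, a Bro1 domain protein of the ESCRT pathway, had -1.37, and Wdr37 had -2.33. Brox read 7.06 and 7.57 in CD169-DTR 2 Gy cells and 8.38 to 8.78 elsewhere. Small RNA genes were the Cajal body RNA Scarna10 (-1.07), the nucleolar RNA Snord69 (-1.91) and Mir466f-1 (-1.34). In Scarna10 the WT non-irradiated arrays, 4.01 and 4.36, were low and the other 6 read 5.19 to 5.64. The opposite order of the genotypes is partly fixed by choosing genes on the interaction. Irradiation differences had opposite signs in 86.2% of the 726 and 83.9% of the 841 probe sets with an unadjusted p under 0.05, against 41.1% of all 30294.

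**Figure D2:**
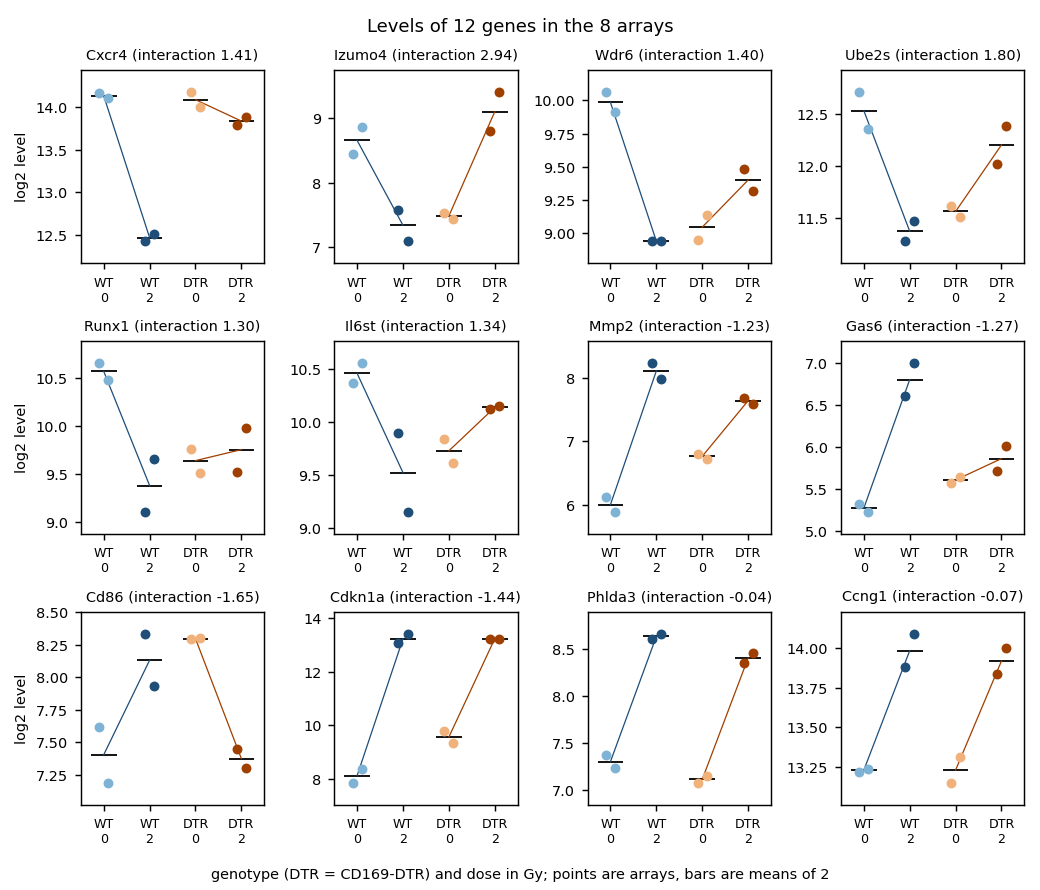
Log2 level of 12 genes in each array (points) and the mean of the 2 arrays (bars), by genotype and dose, with lines joining the means of a genotype and a separate y axis for each gene. In Cxcr4, Mmp2 and Gas6 the WT 2 Gy arrays stand apart, in Izumo4 and Ube2s the genotypes run in opposite directions, and in Phlda3 and Ccng1 they run in parallel.

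Of 26 measured LT-HSC identity genes, 16 had a value above 0 and 10 below, with a median of 0.14, against 12523 above and 17169 below of all 29915 genes. Of these 26, 3 (11.5%) had an unadjusted p under 0.05 above 0 and 0 below, and 0 passed. Brighter coding genes also leaned above 0. Among 7033 protein-coding probe sets with a mean level above 7, 57.3% were above 0, with a median of 0.065. An unadjusted p under 0.05 above 0 was reached by 5.74% of them. Runx1, a transcription factor that founds definitive blood stem cells, read 10.65 and 10.48, then 9.10 and 9.65 in WT cells, and 9.76 and 9.51, then 9.52 and 9.98 in CD169-DTR cells. Its WT non-irradiated arrays stood above the other 6, with an interaction of 1.30 (95% CI 0.50 to 2.11). Without both far 2 Gy arrays the value was 0.80. Lmo2, the bridging protein of the Tal1 and Gata complexes, had the same order, with 10.69 and 10.71 in WT non-irradiated cells, 10.22 to 10.39 elsewhere, and an interaction of 0.49 (SE 0.156). Robo4, a guidance receptor that holds stem cells in the marrow, had 0.71 (SE 0.228), and 0.43 without both far 2 Gy arrays.

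The sorting marker genes had intervals that included 0. Kit had an interaction of 0.10 (SE 0.153), Slamf1 one of -0.60 (SE 0.643), Flt3, the gene of Flk2, one of -0.63 (SE 0.559), and Cd48 one of 0.01 (SE 0.708). The proliferation marker Mki67 had 0.07 (SE 0.401). The signs for Slamf1, Flt3, Cd48 and Mki67 depended on the arrays used, with 3 of the 16 choices above 0 for Flt3.

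Of 33 niche receptors and adhesion genes, 18 had a value above 0 and 15 below, with a median of 0.07. An unadjusted p under 0.05 was reached by 3 above 0 (Cxcr4, Il6st and Robo4) and 1 below (Jam3). Il6st, the gp130 subunit shared by interleukin 6 family receptors, read 10.36 and 10.55, then 9.89 and 9.15 in WT cells, and 9.84 and 9.61, then 10.12 and 10.15 in CD169-DTR cells. The WT non-irradiated arrays were the highest, and the interaction was 1.34 (95% CI 0.52 to 2.17). Jam3, a junctional adhesion molecule, had -1.0 (SE 0.283). Its WT 2 Gy arrays, 5.33 and 5.62, overlapped with the 5.34 of CD169-DTR non-irradiated replicate 2. Mertk, a receptor for Gas6, had -0.54 (SE 0.233), at levels of 4.14 to 4.66, and -0.33 without CD169-DTR non-irradiated replicate 2. In the TGF-beta list, with a median of 0.02, Smad4, the shared transcription factor of the pathway, had 0.64 (SE 0.180). Tgfb1, the ligand, had -0.66 (SE 0.224), with its WT non-irradiated arrays (12.46 and 12.29) below the other 6 (12.86 to 13.24).

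Cell cycle genes leaned above 0, but with values that depended on 1 or 2 arrays. Of 29 G2/M genes 21 were above 0 (72.4%, median 0.11), and of 31 G1/S genes 20 were (64.5%, median 0.14). The share above 0 was 41.9% for all genes. It was 57.3% for protein-coding probe sets with a mean level above 7, whose median was 0.065, so part of this lean is shared by brighter coding genes. Without WT 2 Gy replicate 1 the G2/M and G1/S medians were -0.09 and 0.06, and without both far 2 Gy arrays they were -0.08 and -0.02. E2f7, a repressor of E2F target genes that p53 induces, read 8.11 and 8.30, then 8.45 and 8.65 in WT cells, and 8.22 and 8.0, then 9.38 and 9.52 in CD169-DTR cells. The CD169-DTR 2 Gy arrays stood above all 6 others. The interaction was 0.99 (95% CI 0.50 to 1.49, limma adjusted p = 0.836) and 0.88 to 1.10 with any 1 array left out. Ect2, a cytokinesis exchange factor, had 1.37 (SE 0.455), and Cenpe, a kinetochore motor, had -0.96 (SE 0.340). Of 8 CDK inhibitors, Cdkn2d (p19) had 1.19 (SE 0.331), opposite in sign to Cdkn1a, and 0.76 without both far 2 Gy arrays.

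Among the lists, genes of neutrophils and granulocyte-monocyte progenitors had the lowest median interaction, -0.75. Of 22 measured members 19 were below 0 and 3 above. An unadjusted p under 0.05 was reached by 6 below 0 (27.3%), against 2.77% of all genes, and 0 members passed. All 16 values were below 0 for 8 of the 22. The median stayed between -1.02 and -0.62 when any 1 array was left out, and was -0.92 without both far 2 Gy arrays.

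S100a8, a subunit of calprotectin, read 6.74 and 10.38 in WT non-irradiated cells and 12.25 and 13.31 after 2 Gy. It read 10.53 and 11.83, then 10.97 and 10.14, in CD169-DTR cells. The highest arrays were WT 2 Gy and the lowest was WT non-irradiated replicate 1, whose removal moved the interaction from -4.84 (95% CI -8.68 to -1.01) to -3.02. Elane, neutrophil elastase, read 11.76 and 11.59, then 12.80 and 14.57 in WT cells, and 12.61 to 12.87 in all 4 CD169-DTR arrays. Its interaction was -1.94 (SE 0.716), with WT 2 Gy replicate 2 the highest array, and -1.06 without that array.

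The cathelicidin gene Camp had -4.70 (SE 1.860), but its CD169-DTR 2 Gy arrays read 10.32 and 5.91, and it was -2.5 without the lower one and -2.52 without both far 2 Gy arrays. The serine protease gene Prtn3 had -0.79 (SE 0.283), and -0.50 without WT 2 Gy replicate 2. Lcn2, which binds bacterial siderophores, had -1.41 (SE 0.558), and -0.65 without both far 2 Gy arrays. Single neutrophil genes thus moved by over 1.5 times where the list's median did not. Cebpa, the transcription factor that starts granulocyte differentiation, read 7.53 and 7.19, then 7.01 and 7.68 in WT cells, and 7.81 and 8.06, then 6.80 and 6.26 in CD169-DTR cells. Here CD169-DTR 2 Gy cells were the lowest group and the interaction was -1.39 (SE 0.401). Levels of genes of this lineage in sorted LT-HSC thus differed widely, from 4.60 to 6.09 for Lcn2 to 6.74 to 13.31 for S100a8. Their part in other results was not tested.

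Mast cell and basophil genes ran the other way in 3 members with an unadjusted p under 0.05, all above 0. Cpa3, carboxypeptidase A3, read 11.50 and 10.73, then 10.47 and 10.93 in WT cells, and 10.21 and 10.77, then 11.70 and 11.61 in CD169-DTR cells, with an interaction of 1.58 (SE 0.438). Mcpt8, a basophil protease, had 4.58 (SE 1.459) and Prss34, another, had 3.42 (SE 1.365). CD169-DTR non-irradiated replicate 2 read 5.53 for Mcpt8 and 6.43 for Prss34, below all other arrays, and without it the interactions were 2.90 for Mcpt8 and 2.0 for Prss34. Over all 17 members of the list, 10 were above 0 and 7 below, with a median of 0.12 that became 0.41 without that array.

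That same array was high for erythroid genes. The 16 erythroid members had a median of -0.52, with 13 below 0, and a median of 0.13 without CD169-DTR non-irradiated replicate 2. Car1, carbonic anhydrase 1, read 16.07 there and 12.12 in its partner, against 8.09 to 15.09 in the other 6 arrays. Ighm, the heavy chain constant region of immunoglobulin M, read 13.96 in the same array and 7.05 to 8.99 in the other 7. Ermap, an erythroid membrane protein, read 10.31 there and 5.58 to 8.71 in the others. The part of these cell types in the results above was not tested.

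**Figure D3:**
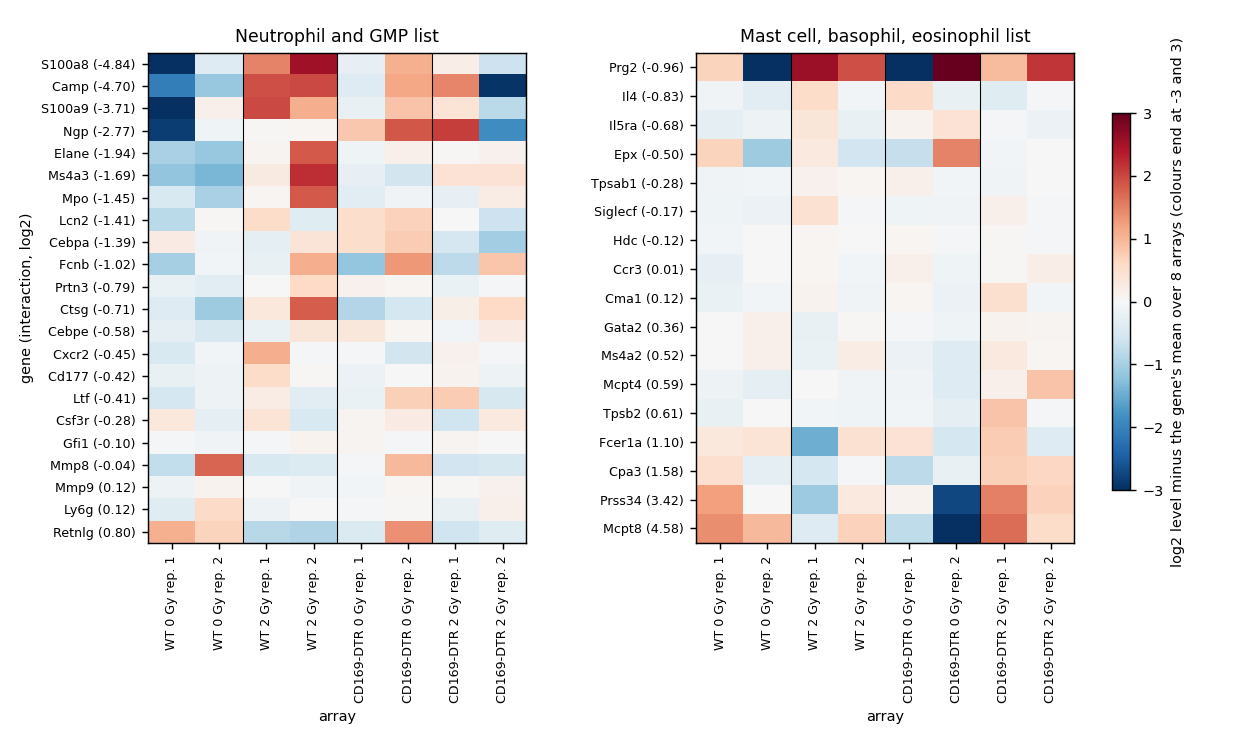
Rows are the 22 measured neutrophil and granulocyte-monocyte progenitor (GMP) genes (left) and the 17 mast cell, basophil and eosinophil genes (right) with their interaction. Columns are arrays, and colours give the log2 level minus the gene's mean over the 8 arrays, ending at -3 and 3. S100a8, Elane, Mpo and Ms4a3 are highest in WT 2 Gy replicate 2, and Mcpt8 and Prss34 are low in CD169-DTR non-irradiated replicate 2.

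Type I interferon genes leaned below 0, with 27 of 35 measured members below and 8 above and a median of -0.18. Of all 29915 genes 17169 were below 0, with a median of -0.05. An unadjusted p under 0.05 was reached by 3 list members below 0 (8.57%, against 2.77% of all genes) and 0 above, and 0 passed. The median of the list was -0.39 to -0.11 with any 1 array left out. Without both far 2 Gy arrays it was -0.04, as was the median of all genes, so the list no longer stood below them. The irradiation differences of the list had a median of -0.10 in WT and -0.28 in CD169-DTR cells. The genotypes differed by a median of 0.26 without irradiation and 0.01 after 2 Gy. Rtp4, a chaperone of G protein-coupled receptors that interferon induces, read 8.68 and 8.74, then 8.34 and 8.71 in WT cells, and 10.51 and 9.61, then 8.57 and 8.46 in CD169-DTR cells. Only the CD169-DTR non-irradiated arrays stood apart, above all 6 others, and the interaction was -1.36 (95% CI -2.34 to -0.38).

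Oasl1, which restrains translation of Irf7, had the same order, with 6.02 and 5.73 in CD169-DTR non-irradiated cells, 4.81 to 5.27 elsewhere, and an interaction of -0.86 (SE 0.266). Ifit1, an RNA-binding antiviral protein, read 8.76 and 8.32 in CD169-DTR non-irradiated cells, 7.22 to 7.80 in WT cells and 7.60 and 5.91 in CD169-DTR 2 Gy cells, with -1.64 (SE 0.740). Without the array that read 5.91 the interaction of Ifit1 was -0.80. Herc6, an Isg15 ligase, differed in its order. It was highest in WT 2 Gy cells, at 9.44 and 9.36, with -0.64 (SE 0.209).

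Interferon signals through a DNA element of repeated GAAA cores. The motif GAAANNGAAA, or TTTCNNTTTC on the other strand, with overlapping matches counted, was looked for from 250 bases before to 50 after each start in the RefSeq promoters (GRCm38.p6). It was present in 3.44% of all 32851 promoters. At least 1 promoter held it for 14 of the 25 interferon list genes that matched the table (56%), against 3.99% of all genes. It was held by 10 of the 18 matched genes with an interaction below 0 and by 4 of the other 7. Ifit1 is shown, up to its start at the end of the window, because it holds 2 matches (in capitals) and the lowest interaction of the list. It lies on the plus strand at chr19:34640639-34640938, of which the first 250 bases are printed.
Ifit1: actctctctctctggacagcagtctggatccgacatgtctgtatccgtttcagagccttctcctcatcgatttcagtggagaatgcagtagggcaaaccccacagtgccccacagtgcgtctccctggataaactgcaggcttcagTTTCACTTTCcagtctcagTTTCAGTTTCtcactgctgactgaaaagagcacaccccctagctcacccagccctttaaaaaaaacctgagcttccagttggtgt

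These letters were not in the windows of Oasl1 and Herc6, and a match is a description of the sequence only. The NF-kB and cytokine list leaned below 0 much as the interferon list did, with 18 of 24 genes below 0 and a median of -0.17. Without both far 2 Gy arrays its median was -0.07, against -0.04 for all genes. Il6, interleukin 6, was the member with the highest value, 2.07 (SE 0.571), at levels of 3.94 to 5.71 near the lower end of the array range. Of 23 interferon-gamma GTPase and MHC class I genes 12 were above 0 (median 0.01). H2-DMb1, which loads peptides on MHC class II, had 0.91 (SE 0.259), with WT 2 Gy arrays (10.14 and 10.54) below the other 6 (10.88 to 11.32).

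**Figure D4:**
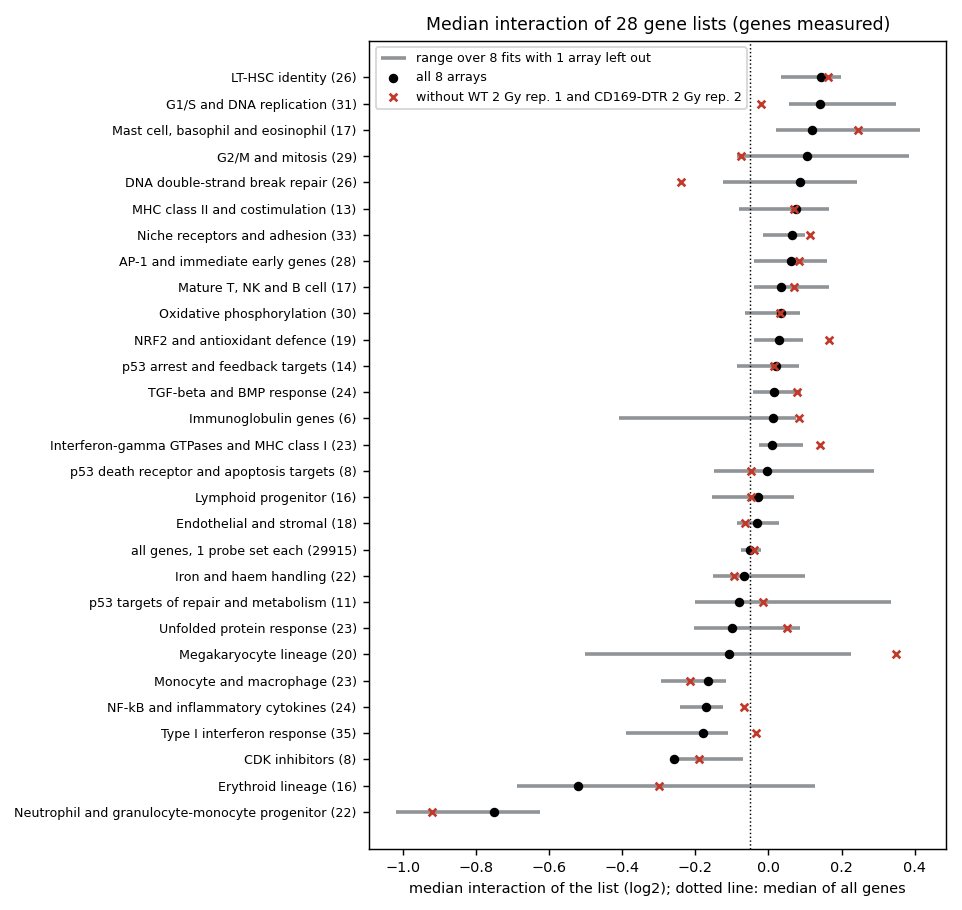
Median interaction (log2, x axis) of 28 gene lists and of all genes, with the number of genes measured in parentheses. Points use all 8 arrays, grey bars span the fits with 1 array left out, and crosses leave out both far 2 Gy arrays. The neutrophil list lies lowest at -0.75, and the erythroid bar crosses 0.

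The lists for DNA double-strand break repair (median 0.09), oxidative phosphorylation (0.04), NRF2 and antioxidant defence (0.03), the unfolded protein response (-0.10), AP-1 and immediate early genes (0.06), megakaryocyte lineage (-0.11), monocytes and macrophages (-0.17) and lymphoid progenitors (-0.03) had 0 members that passed. Without both far 2 Gy arrays the median was 0.35 for the megakaryocyte list, -0.24 for double-strand break repair, 0.05 for the unfolded protein response and 0.17 for NRF2. The lists whose bars cross 0 in the plot of list medians changed sign when 1 array was left out. There were also 0 passing members for MHC class II and costimulation (median 0.08), iron and haem handling (-0.07), immunoglobulin genes (0.01), mature T, NK and B cells (0.04) and endothelial and stromal genes (-0.03). Eif2ak3, the PERK kinase of the unfolded protein response, had 0.89, and 0.57 both without CD169-DTR 2 Gy replicate 2 and without both far 2 Gy arrays. Pdgfrb, a growth factor receptor of stromal cells, had -1.28, and -0.79 without WT 2 Gy replicate 2. Dusp1, a phosphatase of MAP kinases, had 0.97 (SE 0.425), and 0.55 without WT non-irradiated replicate 1, and Nr4a2, a nuclear receptor of the immediate early response, had 0.73 (SE 0.251). Chek2, the checkpoint kinase of double-strand breaks, had 0.93 (SE 0.417), and 0.55 without CD169-DTR 2 Gy replicate 1. Ndufv1, of respiratory complex I, had 0.71 (SE 0.248). Cavin2, a caveolar protein of platelets, had -0.90 (SE 0.289), and -0.47 without both far 2 Gy arrays.

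Small nuclear RNA (snRNA) probe sets, which include spliceosomal RNAs and their many near-identical copies, formed a class examined after its values were seen. Of 927 snRNA probe sets 703 had an interaction below 0, with a median of -0.34, against -0.03 for 19238 protein-coding probe sets. An unadjusted p under 0.05 below 0 was found for 14.5% of them, against 2.78% of all probe sets. For the 265 snRNA probe sets with a mean level above 7, 240 were below 0, and the median was -1.03. The median was 0.065 for the 7033 protein-coding probe sets above that level. CD169-DTR 2 Gy replicate 2 was the lowest array for the 265 snRNA probe sets, at -1.08 relative to the mean over arrays. Replicate 1 of that group was at -0.17. The other 6 arrays lay between 0.04 and 0.37. Without replicate 2 the median was -0.56, and without both far 2 Gy arrays it was -0.44. The same array was lowest for 88 ribosomal RNA probe sets (-0.39), but WT non-irradiated replicate 1 was at -0.32. The highest was CD169-DTR 2 Gy replicate 1, at 0.3. The median interaction of the ribosomal RNA probe sets, -0.47, became -0.03 without both far arrays. Near-identical copies make the single snRNA probe sets uncertain. The same signal may also be counted in several of them, so the shares of this class do not count independent genes.

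**Figure D5:**
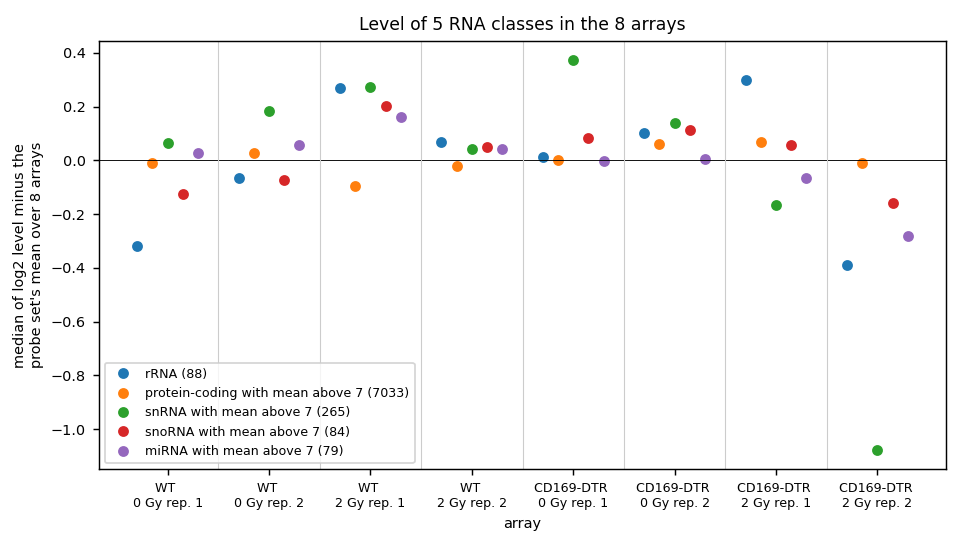
Median level of 5 RNA classes in each array (y axis, log2 relative to each probe set's mean over the 8 arrays). The 265 snRNA probe sets with a mean level above 7 drop to -1.08 in CD169-DTR 2 Gy replicate 2. The 7033 protein-coding probe sets above that level lie between -0.094 and 0.07. The arrays have nearly equal medians and quartiles, so the median of so large a class can move little.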

How the data were processed

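RNA was hybridised to 8 Affymetrix arrays. The log2 values deposited by the authors came from RMA, a multi-array summary of probe intensities, as the submitters' processing notes record. The log base is not stated, and log2 is the convention of RMA. Values were used as deposited, with no filter on low values. GEO's platform annotation gave 1 gene symbol for 30294 probe sets, several for 2145 and none for 7722. Entrez IDs matched 22546 of them to the RefSeq table (GRCm38.p6), which updated 827 symbols.

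The mean of each group was fitted with limma 3.58.1 (lmFit and eBayes, statmod 1.5.0, R 4.3.3), with 4 residual and 2.59 prior degrees of freedom. Tests were two-sided, and p-values were adjusted over 30294 probe sets. The fit was also run on simulated data with independent noise and planted interactions larger than most named here. Power for smaller interactions was not measured. SE and 95% CI are from this fit. Lists use the brightest probe set of a gene and hold 550 measured genes in 28 lists. They were described by counts and medians, with no test.

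Genes named are the 15 leading ones per direction (interaction of at least 1, highest group mean at or above the median of 4.92, the same sign in all 16 choices, smallest p), the 2 list members with the smallest p, and 12 genes always given. Predicted genes, receptor families of smell and genes of unknown role were left out of the leading ones: 272 probe sets above 0 and 365 below 0 met the criteria, of which 56 and 227 had such names. Other list members named in the text (such as Elane, Camp, Jam3, Robo4, Prtn3, Prss34, Mpo, Ms4a3, Ifit1, Car1 and Ermap) were chosen after their values were seen. The members, lists and tests were chosen with earlier results of these data known.

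Alternatives were an intensity trend, a filter above the 40th percentile, all probe sets, limma's array weights, cyclic loess, centring on the median, a block for the replicate number, another threshold, each array left out, and, added after seeing the data, both far 2 Gy arrays left out.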

Additional observations from a re-analysis of the deposited data

How the results depend on the processing

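The count of 0 probe sets that passed limma's interaction test held under the intensity trend, the filter on dim probe sets, all 40161 probe sets, cyclic loess, median centring and array weights, with smallest adjusted p of 0.143 to 0.72. Leaving out 1 array at a time gave 0 to 7 probe sets. They included Ighv1-39 without WT 2 Gy replicate 1, and Igkv19-93, Igkv4-57, Igkv4-55, Mir487b, Mir3080 and Gm22200 among 7 without WT 2 Gy replicate 2. Without CD169-DTR non-irradiated replicate 1 there were 4 (Ighm, Ighv5-16, Mir505 and Kel), and without replicate 2 there were 2 (Mir505 and Mir6902). Without CD169-DTR 2 Gy replicate 2 there were 3 (Igkv5-43 and Igh-VS107 among them), and without both far 2 Gy arrays there was 1 (Igkv5-43). In these fits the lone array is assumed to vary like the other groups, and the cause was not tested. At an unadjusted p under 0.05 and a 1.5-fold interaction there were 1215 probe sets.

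The replicate block also gave 0 probe sets. Deviations of arrays with the same replicate number correlated between groups with r of -0.0877 to 0.159, so the numbers are not used as a pairing, and the block changed no call.

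Signs turned for genes with interactions near 0 or a wide spread, and the cause was not tested. Without both far 2 Gy arrays, Gtse1 was -0.005, Eda2r 0.025, Slamf1 0.13 and Mki67 -0.22. Median centring gave 0.03 for Ccng1 and 0.055 for Phlda3, and cyclic loess gave -0.0227 for Cd48. With 1 array left out, Mdm2 ranged from -0.49 to 0.13, Ccng1 from -0.17 to 0.04, Phlda3 from -0.105 to 0.025, Cd48 from -0.74 to 0.75 and Mki67 from -0.255 to 0.385. Ighm reached -7.79 (limma adjusted p = 0.0166) without CD169-DTR non-irradiated replicate 1 and -0.88 without replicate 2. Median centring moved the median of all genes from -0.05 to 0.045.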

Other observations

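Gm22205, a predicted small nucleolar RNA gene and so passed over by the rule for named genes, was chosen after its values were seen. It read 4.71 and 6.90 in WT non-irradiated cells, 3.43 and 3.28 in WT 2 Gy cells, 9.93 and 10.42 in CD169-DTR non-irradiated cells and 3.38 and 3.64 in CD169-DTR 2 Gy cells. The CD169-DTR non-irradiated arrays stood far above the other 6, and both 2 Gy groups lay below the 25th percentile of their arrays. Its interaction was -4.21 (SE 0.894, limma adjusted p = 0.836). The difference of 4.37 between the non-irradiated genotypes did not pass either (limma adjusted p = 0.936). Mir148a was also highest in CD169-DTR non-irradiated cells.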
